A study of Homo sapiens with 2 samples.

Results

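TGF-beta and BMP signalling is described here through 45 genes chosen by name: the ligands, receptors, SMAD proteins, inhibitors and target genes of the pathway. Of these, 43 were on the arrays, and 30 passed a filter on dim genes. The 43 are part of 17687 named genes, and the 30 are part of 8844 genes that passed the filter, a mean over both arrays that reached the median named gene (7.54 on the log2 scale). TGFB2 and BMPR1A were not analysed here. The filter also separated members with close values: LTBP4 lay just inside it (mean 7.65) and the corepressor gene SKI just outside (mean 7.36).

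The cells were SW48, a long-established line from a human colorectal cancer. One culture received an siRNA against YY1 (siYY1) and one a negative control siRNA (siControl), each at 5 nmol/L, and RNA was taken after 3 days. Each group was 1 whole-transcript array, and the knockdown rested on a single siRNA sequence delivered with a lipid reagent. A single array per group gives no replicate error and allows no test, so every value below describes these arrays only. The level of YY1 was not analysed here, so the knockdown itself was not checked.

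Ligands of this family bind paired type I and type II receptor kinases on the cell surface. The receptors phosphorylate SMAD proteins, which join SMAD4, enter the nucleus and switch genes on or off. TGF-beta and activin act mainly through SMAD2 and SMAD3, whereas BMPs act mainly through SMAD1, SMAD5 and SMAD9. Several of the genes switched on encode inhibitors of the pathway itself, among them SMAD6, SMAD7, SKIL, BAMBI and PMEPA1. In the colon, BMP signals favour differentiation away from the crypt base, and TGF-beta restrains epithelial growth. YY1, a zinc finger transcription factor, is known to bind SMAD proteins and to restrain responses to TGF-beta and BMP in other cells. SW48 belongs to the mismatch repair deficient colorectal cancers, in which TGFBR2 often carries frameshift mutations. The arrays measured RNA and did not read such changes.

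Differences are given in log2 units throughout, with siControl subtracted from siYY1. PMEPA1 and the BMP target ID3 were the only kept members at least 1.5-fold higher in siYY1, and 0 of 30 were at least 1.5-fold lower. Of all 8844 kept genes, 3.04% passed that line upward and 3.78% downward. The members' share of 6.67% rests on 2 genes and was not tested against that background. A looser line of 1.3-fold was passed upward by 7 kept members (PMEPA1, ID3, TGFBR1, BMP7, SMURF1, BMPR2 and ID2), beside 9.16% of kept genes, and downward by LTBP4 and SMURF2, beside 10.4%. At 2-fold, 0 members passed in either direction, beside 0.373% of kept genes upward and 0.577% downward. Over all 43 members on the arrays, dim ones included, 3 passed 1.5-fold upward and 1 downward, beside 3.98% and 3.9% of all named genes. Differences of any size leaned upward: 20 of 30 kept members (66.7%) were above 0, beside 50.4% of all kept genes. Without BMP4 and BAMBI, which were above 16 on both arrays, it was 18 of 28 (64.3%). This lean was not tested, and the members were picked with earlier results of these data known. The median difference was 0.11 for the kept members and 0.00 for all kept genes. Over the 43 members on the arrays the median was 0.09, beside 0.01 for all named genes. The lean did not extend over all roles. The 6 signal-carrying SMAD genes had a median of -0.01, and the 3 kept latent TGF-beta binding proteins one of -0.11. The kept receptors were split in sign, with 4 of 7 above 0, and their median was 0.15.

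**Figure D1:**
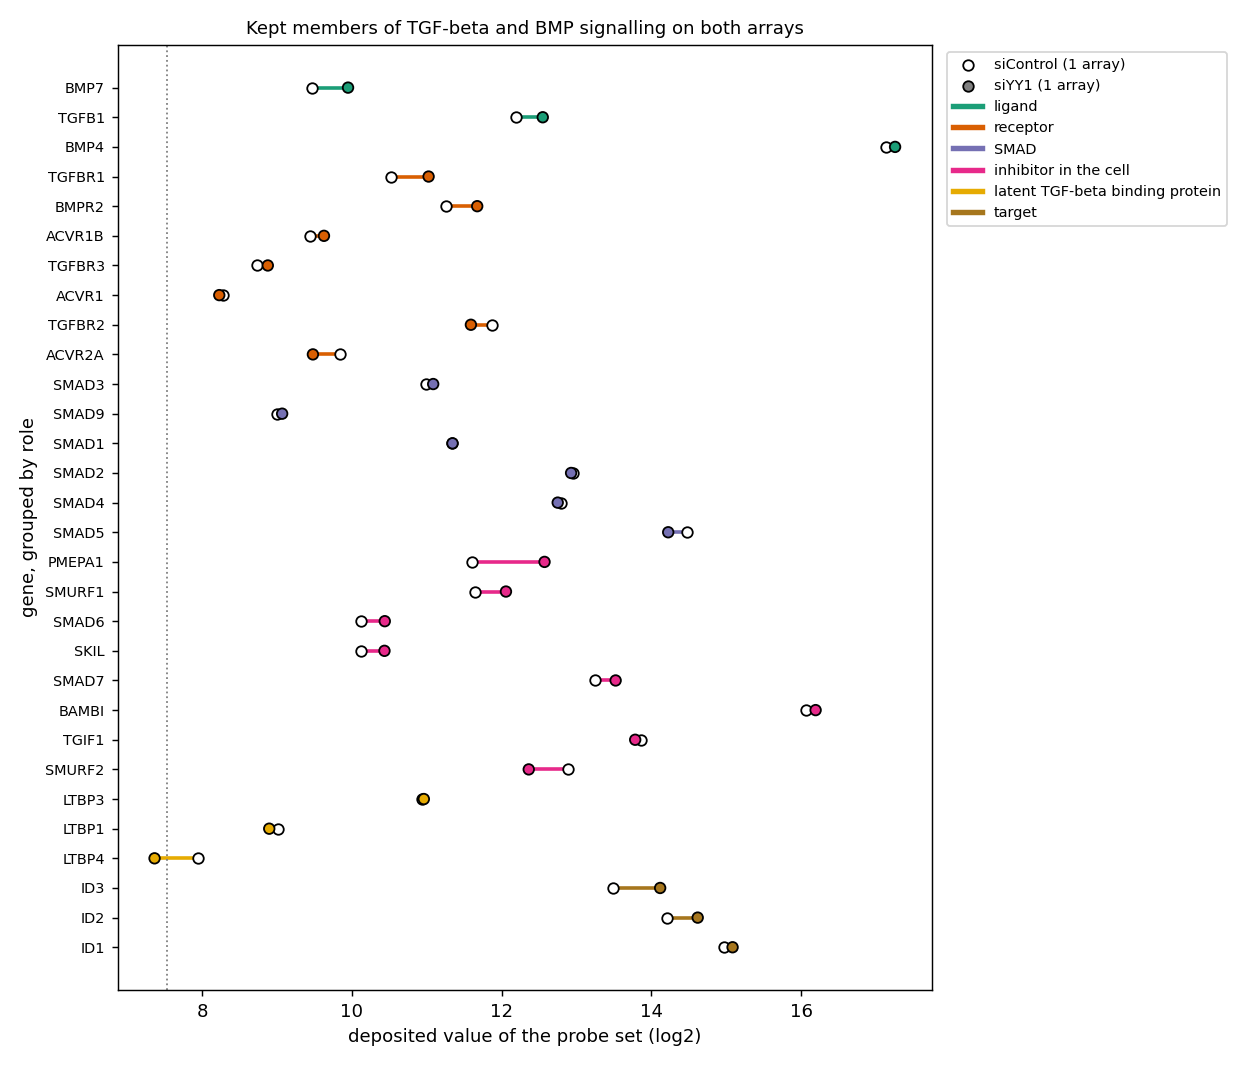
Deposited log2 values (horizontal axis) of the 30 kept members, grouped by role and ordered by difference within a role. Open points are siControl and filled points siYY1, 1 array each. The dotted line is the filter value of 7.54. The line joining the points is longest for PMEPA1, and the SMAD genes other than SMAD5 have almost coinciding points.

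The starts of 4 genes are shown because they hold, near the start of the transcript, a match to the YY1-type sequence AANATGGC (ID3, TGFBR1 and ACVR2B) or belong to the member with the largest positive difference (PMEPA1). Each window runs from 250 bases before to 50 bases after a RefSeq start in GRCh38.p14, 5′ to 3′ on the gene's strand. Capitals mark AANATGGC, GTCTG (the core of a SMAD box with a flanking base) and GGCGCC (a GC-rich SMAD sequence), on either strand. GGCGCC reads the same on both strands. Overlaps between motifs were allowed.
ID3, chr1:23559452-23559751, minus strand: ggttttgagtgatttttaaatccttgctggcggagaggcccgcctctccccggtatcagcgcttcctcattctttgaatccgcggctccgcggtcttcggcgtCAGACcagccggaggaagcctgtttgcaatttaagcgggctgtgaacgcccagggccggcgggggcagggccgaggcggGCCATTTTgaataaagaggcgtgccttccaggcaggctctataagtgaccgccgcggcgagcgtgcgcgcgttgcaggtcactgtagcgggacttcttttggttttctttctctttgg
TGFBR1, chr9:99105325-99105624, plus strand: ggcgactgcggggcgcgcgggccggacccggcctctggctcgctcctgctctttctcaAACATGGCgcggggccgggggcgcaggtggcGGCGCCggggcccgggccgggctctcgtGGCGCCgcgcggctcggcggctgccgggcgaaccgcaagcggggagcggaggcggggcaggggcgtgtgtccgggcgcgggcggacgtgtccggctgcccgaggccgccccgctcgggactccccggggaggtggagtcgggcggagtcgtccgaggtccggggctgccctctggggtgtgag
ACVR2B, chr3:38453640-38453939, plus strand: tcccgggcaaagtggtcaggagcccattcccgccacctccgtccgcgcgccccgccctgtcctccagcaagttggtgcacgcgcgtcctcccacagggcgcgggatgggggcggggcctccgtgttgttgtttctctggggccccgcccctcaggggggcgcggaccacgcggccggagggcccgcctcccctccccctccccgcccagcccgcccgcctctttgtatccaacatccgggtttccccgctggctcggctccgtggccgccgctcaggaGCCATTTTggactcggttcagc
PMEPA1, chr20:57709966-57710265, minus strand: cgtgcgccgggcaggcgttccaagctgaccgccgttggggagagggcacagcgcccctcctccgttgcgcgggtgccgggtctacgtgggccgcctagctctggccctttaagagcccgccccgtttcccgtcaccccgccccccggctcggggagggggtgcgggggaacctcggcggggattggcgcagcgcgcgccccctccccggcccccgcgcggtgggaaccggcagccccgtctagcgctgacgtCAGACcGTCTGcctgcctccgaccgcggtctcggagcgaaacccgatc

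In the ID3 window, AANATGGC lies on the opposite strand and begins at position -68 relative to the start, upstream of the transcript. In ACVR2B it is also on the opposite strand and begins at base 29 of the transcript. In TGFBR1 it begins at position -192 relative to a start that is itself inside the span of the gene (chr9:99103647-99154192), and other TGFBR1 windows in the table hold no match. The PMEPA1 window belongs to 1 of several starts of the gene, also inside its span (chr20:57648396-57711472), and holds GTCTG on each strand, beginning at bases 3 and 9 of that transcript. RefSeq windows were matched for 41 of the 45 members, 82 windows in all. By gene, AANATGGC was found in 3 of these 41 (7.32%), beside 7.97% of all genes with a window, GTCTG in 65.9% beside 50%, and GGCGCC in 43.9% beside 22%. Genes with more windows have more chances of a match, and the members had 82 windows over 41 genes, beside 35116 windows over 27305 genes in all. By window, the shares were 3.66% beside 6.58% for AANATGGC, 54.9% beside 45.3% for GTCTG, and 24.4% beside 19.2% for GGCGCC. A match is a description of letters and does not show binding. Of the 3 genes with AANATGGC, ID3 and TGFBR1 were higher in siYY1, TGFBR1 by less than 1.5-fold. ACVR2B was lower, but it was under the filter. Whether the match bears on these differences was not tested.

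Among the ligands, all 3 kept genes were higher in siYY1 and 0 reached 1.5-fold. BMP7, a BMP ligand, went from 9.46 in siControl to 9.95 in siYY1, a difference of 0.49 or 1.40-fold. TGFB1, the main TGF-beta ligand of epithelia and their stroma, went from 12.19 to 12.55 (difference 0.36). BMP4, a BMP ligand made in the gut, was 17.14 in siControl and 17.25 in siYY1. Both values exceeded 16, the most that raw 16-bit scanning can give in log2 units. Deposited values ran up to 17.97 in siYY1, so 16 was not the top of their scale. Whether the BMP4 probe set was saturated is not known, so its small difference of 0.12 does not show that BMP4 was stable. The other 4 ligand genes were under the filter. INHBA, which encodes the beta A subunit of activin and inhibin, was 6.87 and 6.60. TGFB3, BMP2 and INHBB (an inhibin and activin beta B subunit) had means of 4.82, 5.34 and 4.31, all under the rough dim level of 5.49, the 95th percentile of 349 olfactory receptor genes. Values this low were not shown to be above background.

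Receptors differed in both directions, with 4 of 7 kept genes above 0 and 0 past 1.5-fold. TGFBR1, the type I TGF-beta receptor kinase, went from 10.52 to 11.02 (difference 0.50). Its partner TGFBR2, the type II receptor that binds TGF-beta first, went the other way, from 11.87 to 11.59 (difference -0.28). Type II receptors of the BMP and activin branches also had differences of both signs, which were not tested against each other. BMPR2 went from 11.26 to 11.67 (difference 0.42), whereas ACVR2A, which binds activins and some BMPs, went from 9.84 to 9.48 (difference -0.36). The remaining kept receptors differed little between the arrays. The activin type I receptor ACVR1B was 9.44 and 9.63, the co-receptor TGFBR3 (betaglycan) 8.73 and 8.88, and the BMP type I receptor ACVR1 8.28 and 8.23. Under the filter, ACVR2B, a second activin type II receptor, had the largest negative difference of all members, from 6.56 to 5.64 (-0.92, 1.89-fold lower in siYY1). Of the 8843 named genes under the filter, 4.03% passed 1.5-fold downward and 4.92% upward, and 0.577% had a difference as low as that of ACVR2B or lower. BMPR1B, a BMP type I receptor, was dim on both arrays (4.98 and 5.06).

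The SMAD genes that carry the signal were all kept, and 5 of the 6 differed by less than 0.1. SMAD2 (12.95 and 12.93) and SMAD3 (11.00 and 11.08), which serve TGF-beta and activin, were close on both arrays. So was SMAD4, the partner of all the others, at 12.80 in siControl and 12.75 in siYY1. Of the BMP branch, SMAD1 was 11.34 on both arrays and SMAD9 differed by 0.06 (9.07 in siYY1). SMAD5 was the exception, at 14.48 in siControl and 14.22 in siYY1 (difference -0.25). The median absolute difference over all kept genes was 0.18, so SMAD5 lay a little beyond it and the other 5 within it.

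The inhibitors that act inside the cell or at its membrane held the largest positive difference, and 6 of the 8 kept were above 0, with a median of 0.30. PMEPA1, a membrane protein that keeps SMAD2 and SMAD3 from the receptor and is itself a TGF-beta target, went from 11.61 to 12.57 (difference 0.96, 1.95-fold). That difference had rank 38 from the highest among the 8844 kept genes. The inhibitory SMADs, which block receptor-SMAD contact and are induced by the pathway, were both higher by less than 1.5-fold. SMAD6, selective for BMP signals, went from 10.12 to 10.44 (difference 0.32). SMAD7, which blocks both branches, went from 13.25 to 13.52 (difference 0.28). SKIL, a corepressor of SMAD target genes that TGF-beta induces, went from 10.12 to 10.43 (difference 0.32). Its relative SKI was under the filter and went the other way, from 7.51 to 7.21 (difference -0.30). The pseudoreceptor gene BAMBI was 16.06 and 16.19, above 16 on both arrays, and the corepressor gene TGIF1 was 13.86 and 13.78.

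SMURF1 and SMURF2 encode related ubiquitin ligases that mark SMADs and receptors for degradation, and their differences had opposite signs. SMURF1 went from 11.64 to 12.06 (difference 0.42). SMURF2 went from 12.89 to 12.36 (difference -0.53, 1.44-fold lower), the second lowest of the kept members. Neither reached 1.5-fold, and whether the paralogs differed from each other was not tested.

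**Figure D2:**
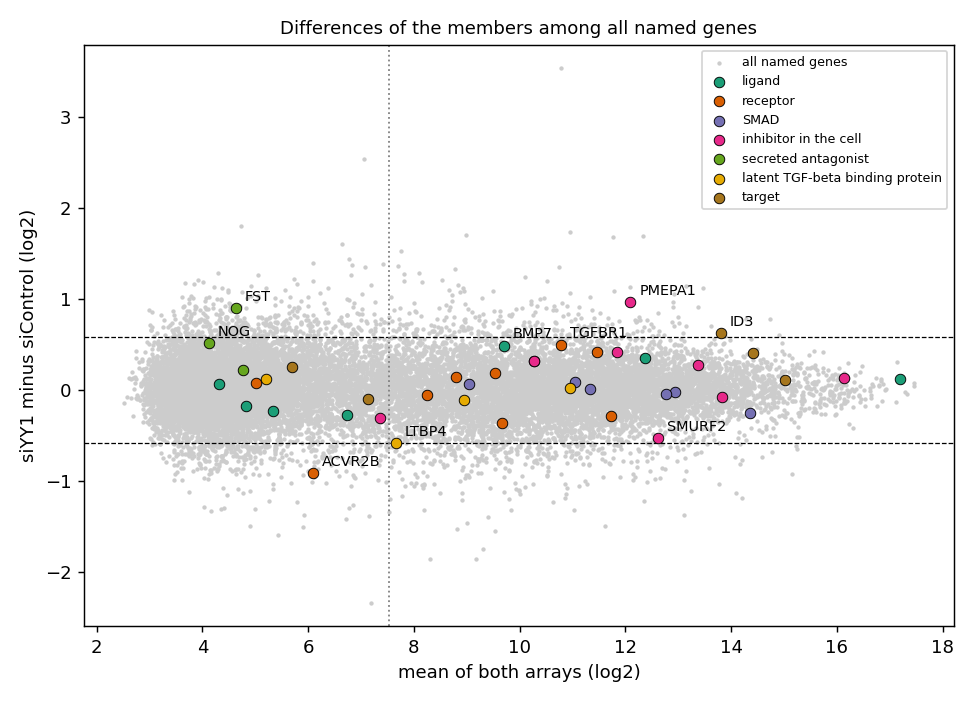
Difference siYY1 minus siControl (vertical axis, log2) against the mean of both arrays (horizontal axis, log2) for all 17687 named genes in grey and the 43 members coloured by role. Dashed lines mark 1.5-fold and the dotted line the filter value of 7.54. PMEPA1 and ID3 lie above the upper dashed line to the right of the filter, FST and ACVR2B pass 1.5-fold only on the dim side, and the other members lie within the grey cloud between the dashed lines, with LTBP4 at the lower one.

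The ID genes encode helix-loop-helix proteins that bind and block differentiation factors, and they are among the most direct BMP targets. All 3 kept ID genes were higher in siYY1, by unequal amounts. ID3 went from 13.49 to 14.12 (difference 0.63, 1.55-fold), with rank 211 from the highest among kept genes. ID2 went from 14.21 to 14.62 (difference 0.41) and ID1 from 14.98 to 15.08 (difference 0.11). Of these 3, ID3 is the gene whose start carries the AANATGGC match shown above, and the windows of ID1 and ID2 held none of the 3 motifs. Whether the match bears on the difference was not tested. ACVR2B, which also holds the match, was under the filter and lower in siYY1. ID4 was under the filter, at 5.57 and 5.82. TGFBI, a secreted matrix protein named for its induction by TGF-beta, was under the filter and differed by -0.10 (7.18 and 7.08).

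Latent TGF-beta binding proteins are matrix proteins, and some but not all of them hold inactive TGF-beta there. LTBP4 had the lowest difference among the kept members, from 7.95 to 7.36 (difference -0.58, 1.498-fold lower). This lay just inside the 1.5-fold line, and LTBP4 passed it when differences were centred on their median or by lowess. Its siYY1 value was under the filter value, so the size of the difference is uncertain. LTBP3 (10.93 and 10.96) and LTBP1 (9.01 and 8.90) were close on both arrays, and LTBP2 was dim (5.14 and 5.26).

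The secreted antagonists were dim on both arrays. FST, which encodes the activin-binding protein follistatin, was 4.18 in siControl and 5.08 in siYY1 (difference 0.90). The BMP antagonist genes NOG (3.86 and 4.37) and GREM1 (4.66 and 4.88) were also higher in siYY1. All 3 had means under the dim level of 5.49. Of the 349 olfactory receptor genes, 6.02% were at least 1.5-fold higher, and the largest absolute difference among them was 0.93, just beyond that of FST. FST therefore lay within the range of these genes both in level and in difference. Among all named genes under the filter, 0.859% had a difference as high or higher.

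A further 100 genes of the pathway, listed by class, were examined in the same way. Of these, 90 were on the arrays and 33 were kept, with 3 higher by 1.5-fold or more, 4 lower by as much, and a median of 0.04. These were 9.09% and 12.1% of the 33, beside 3.04% and 3.78% of all kept genes. In either direction the share was 21.2%, beside 6.82%, with no test of the difference. The list was made with earlier results of these data known, so this share is not independent of the values. It also depended on the filter. With a stricter filter value of 10.83, 1 listed gene was higher by 1.5-fold or more and 1 lower. Of the 4 lower genes, 2 encode secreted antagonists. NBL1, a BMP antagonist, went from 8.01 to 7.22 (difference -0.79), and FSTL3, a relative of follistatin that binds activin, from 8.28 to 7.64 (difference -0.65). The NBL1 value in siYY1 was under the filter value. TWSG1, which modulates BMP availability, was the only other kept antagonist (12.50 and 12.67).

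Genes for activation of latent TGF-beta held differences in both directions. ITGB8, the integrin beta subunit that pairs with the alpha subunit ITGAV to release TGF-beta from its latent complex, went from 9.74 to 8.28 (difference -1.46). ITGAV itself went from 9.81 to 10.56 (difference 0.75). FURIN, the protease that cleaves TGF-beta precursors, went from 8.64 to 9.30 (difference 0.66). The metalloprotease gene BMP1 was 10.75 and 10.89.

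Among 14 kept regulators inside the cell, 1 was past 1.5-fold in each direction. PPM1A, a phosphatase reported to act on SMAD proteins, went from 11.99 to 12.63 (difference 0.65). MAP3K7, which encodes the TGF-beta activated kinase TAK1, went from 11.46 to 10.86 (difference -0.61). Next to these ends were TGIF2, a corepressor, at 0.26, and WWP1, a ubiquitin ligase, at -0.23.

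The kept target genes outside the 45 members did not show the differences of PMEPA1 and ID3. Of 6 kept TGF-beta targets outside the 45 members, 0 passed 1.5-fold and the median was 0.01. TSC22D1, a leucine zipper protein gene, had the highest difference (0.30), then KLF10 (0.04), a growth-restraining factor induced early by TGF-beta. BHLHE40 (-0.15) and JUNB (-0.10), both transcription factor genes, had the lowest. The 2 kept BMP targets, the transcription factor genes MSX2 and RUNX2, each differed by 0.08. With targets under the filter included, 8 of 15 TGF-beta targets and 7 of 7 BMP targets were above 0, beside 52% of all named genes. Of these BMP targets, 5 were under the dim level. The kept ligand GDF15, a stress-induced member of the family, was 12.63 and 12.91, and the co-receptor gene ENG (endoglin) 12.17 and 12.43. The co-receptor genes NEO1 and RGMB differed by 0.05 and -0.14.

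**Figure D3:**
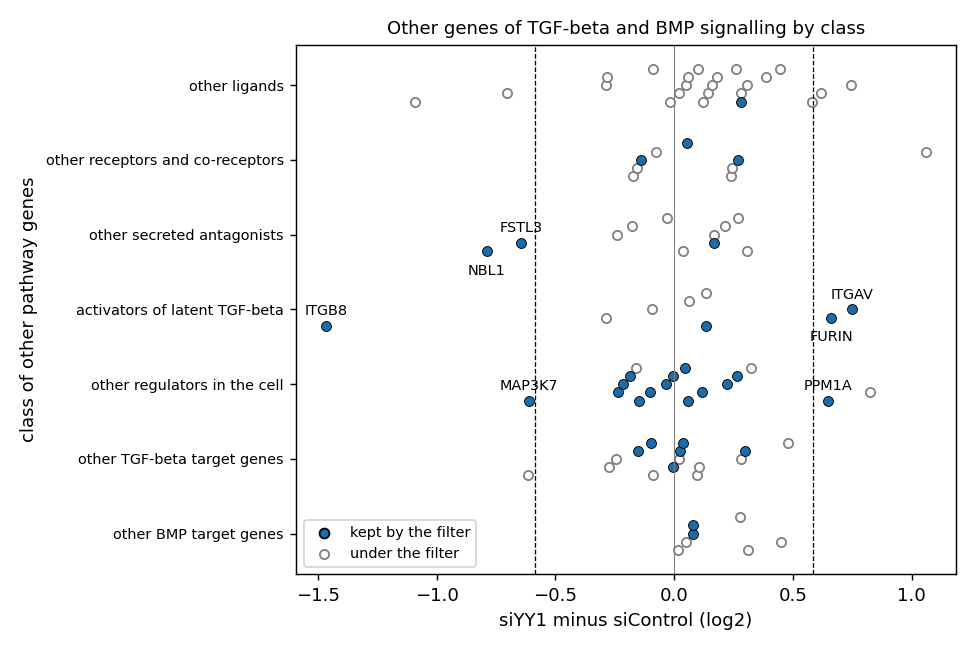
Difference siYY1 minus siControl (horizontal axis, log2) of the 90 other pathway genes on the arrays, by class (vertical axis; the small vertical offsets only separate points). Filled points were kept by the filter, open points were under it, and dashed lines mark 1.5-fold. The 7 named genes are the kept ones past 1.5-fold, 3 of them activators of latent TGF-beta and 2 secreted antagonists.

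Under the filter, 4 of 57 other pathway genes (7.02%) passed 1.5-fold upward and 3 (5.26%) downward, beside 4.92% and 4.03% of all named genes under the filter. All 7 are named after their values were seen. ACVR1C, a type I receptor for nodal and activin-like ligands, went from 6.49 to 7.55 (difference 1.06). ZEB1, a repressor that binds SMADs and drives mesenchymal change, went from 6.31 to 7.14 (difference 0.82). SNAI2, another repressor tied to mesenchymal change, went the other way, from 4.77 to 4.15 (difference -0.61). The other 4 were ligand genes, of which NODAL (0.74) and GDF10 (0.62) were higher in siYY1 and GDF9 (-1.09) and GDF3 (-0.70) lower.

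The arrays had the markers of an epithelial line only in part. Of 11 colorectal epithelial markers on the arrays, 6 were kept (CDX2, EPCAM, CDH1, KRT8, KRT18 and CEACAM5), while CDX1, VIL1, LGALS4, GPA33 and MUC2 were under the filter. Of the 6 kept, CEACAM5 alone passed 1.5-fold, with 13.80 in siControl and 12.42 in siYY1 (difference -1.38), and the other 5 differed by at most 0.20 in size. Of markers of other cells, 1 of 8 for fibroblasts was kept (COL1A2, 8.60 and 9.05), and 0 of 5 for leukocytes and 0 of 4 for endothelium. The median level of the fibroblast markers was 4.77 in siControl and 4.61 in siYY1. The reference genes ACTB and GAPDH differed by 0.11 and -0.03, and GAPDH lay above 16 on both arrays.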

How the data were processed

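Total RNA of SW48 cells was hybridised to whole-transcript arrays, 1 for siControl and 1 for siYY1, grouped by sample title. The authors deposited 1 value per probe set, used here as a log2 value. The unit was read from the values (2.46 to 17.90 and 2.32 to 17.97). The sources used here do not name the software, normalization or log base. Folds assume plain log2. Of 21448 probe sets, 17709 were named through GEO's platform annotation. Each member had 1 probe set, and 20 other genes had several, which were averaged. The members and gene lists were chosen with earlier results of these data known. The text names every member, up to 2 kept genes at each end of each other class, and ACTB and GAPDH. Other names are marked. The size rule of 1.5-fold was run on simulated data, as a check of the code only. That run gives no error rate for the real values, which have no replicates. The number of arrays limits the precision. Promoter windows came from RefSeq (GRCh38.p14). Alternatives were other fold rules, filters, scalings (quantile, median, lowess with fraction 0.3) and the brightest probe. Chosen after seeing the data was leaving out members above 16. Python 3.11.15, numpy 2.4.6, pandas 2.3.3, statsmodels 0.14.6 and matplotlib 3.10.9 were used.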

Additional observations from a re-analysis of the deposited data

How the results depend on the processing

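PMEPA1 and ID3 remained at least 1.5-fold higher under quantile, median and lowess scaling. Median centring shifted every member by only -0.003. The brightest-probe setting could not change either gene, since each member had 1 probe set. The filters could not remove them, since their means (12.09 and 13.80) were far above the strictest filter value of 10.83. With a 1.3-fold rule 7 kept members were higher and 2 lower, beside 9.16% and 10.4% of all kept genes, and with a 2-fold rule 0 were higher. The count of members at least 1.5-fold lower was 0, and became 1 with median centring and with lowess centring (LTBP4 in both) and 1 with no filter (ACVR2B). With no filter FST joined the higher members, making 3. Over all settings the median of the kept members ran from 0.09 to 0.11, and 0 of 43 members changed sign under quantile, median or lowess scaling. Among the 90 other pathway genes on the arrays, 7 were higher and 7 lower with no filter, beside 3.98% and 3.9% of all named genes. With a filter at the 75th percentile of named genes, 1 was higher and 1 lower, beside 1.97% and 2.65% of the genes that passed it. No paired analysis was possible because each group has 1 array. Signal over background was not measured, which limits all dim members.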
